A study of Mus musculus with 19 samples.

Results

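The WNK kinase pathway of the distal tubule was followed as 9 genes in whole kidneys of mice in which Dnmt3a and Dnmt3b, which encode the de novo DNA methyltransferases, were targeted in the tubule epithelium. The genes were chosen by name: the kinases Wnk1 and Wnk4, the ubiquitin ligase parts Klhl3 and Cul3, the effector kinases Stk39 and Oxsr1, the scaffold genes Cab39 and Cab39l, and Pvalb, a marker of the early distal convoluted tubule. All 9 were found once among the 54146 gene identifiers of the RNA tables, and all 9 had a mean of at least 1 TPM and were tested. TPM are transcript abundances per length, scaled to the same sum in each library, so levels of different genes can be set side by side.

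The control group held 3 RNA libraries of whole kidney from B6C3F1/J mice with the genotype Dnmt3ab f/f, that is, floxed alleles and no Cre. The KspCre DKO group consisted of 2 libraries of that strain with the genotype KspCre Dnmt3ab f/f, in which Cre is driven by the Ksp-cadherin promoter of tubule epithelium. All were taken at postnatal day 21 (3 weeks), and the floxed alleles are shared by both groups. The other 14 of the 19 samples are bisulfite libraries and are not analysed here. Whether the replicates are different animals is not labelled, and p-values cover the spread among these libraries alone, which may be technical. Because whole kidney was measured, fewer cells of a type and less RNA per cell cannot be told apart.

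WNK kinases sense intracellular chloride, and through it plasma potassium. They phosphorylate the kinases SPAK (Stk39) and OSR1 (Oxsr1), which are held in their active form by the MO25 scaffold proteins (Cab39 and Cab39l). SPAK and OSR1 in turn activate the thiazide-sensitive sodium-chloride cotransporter (Slc12a3) of the distal convoluted tubule and the sodium-potassium-chloride cotransporter (Slc12a1) of the thick ascending limb. KLHL3 brings WNK kinases to the CUL3 ubiquitin ligase for degradation, and inherited mutations in WNK1, WNK4, KLHL3 or CUL3 cause hypertension with high potassium. Much of this pathway is set by phosphorylation and protein turnover, which RNA levels do not show.

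In KspCre DKO replicate 2 fewer genes were detected, with 14710 above 0 TPM where the other libraries had 18488 to 20510. Mitochondrially encoded genes took 31.0% of its TPM and 18.2% to 23.2% of the others'. Depth is unknown, since TPM keep no read number. The targeted gene Dnmt3a gave no check of the labels, with 13.2, 18.97 and 15.5 TPM in control kidneys and overlapping values of 9.98 and 14.2 TPM in KspCre DKO kidneys. Dnmt3b read 1.82, 2.86 and 1.98 TPM against 2.29 and 3.25 TPM, so each direction below rests on the labels.

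Because the targeted enzymes act on CpG sites, the letters before the start sites are shown for the genes of smallest p (Wnk1 and Cab39l), for Wnk4, and for Pvalb as a CpG-poor contrast. Sequences are from RefSeq on GRCm38.p6, 5′ to 3′ on the gene's strand, up to the base before the annotated gene, with each CG in capitals.
Wnk1, chr6:120038696-120038905, minus strand: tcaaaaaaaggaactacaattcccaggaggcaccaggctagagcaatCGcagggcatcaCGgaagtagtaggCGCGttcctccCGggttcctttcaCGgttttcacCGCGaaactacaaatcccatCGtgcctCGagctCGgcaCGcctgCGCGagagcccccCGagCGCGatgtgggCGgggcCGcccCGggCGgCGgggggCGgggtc
Wnk4, chr11:101260317-101260536, plus strand: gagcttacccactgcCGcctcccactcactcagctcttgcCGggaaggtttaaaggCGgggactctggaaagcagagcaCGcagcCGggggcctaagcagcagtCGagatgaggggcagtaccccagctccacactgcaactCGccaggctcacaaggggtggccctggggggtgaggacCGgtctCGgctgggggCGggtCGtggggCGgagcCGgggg
Cab39l, chr14:59440713-59440933, plus strand: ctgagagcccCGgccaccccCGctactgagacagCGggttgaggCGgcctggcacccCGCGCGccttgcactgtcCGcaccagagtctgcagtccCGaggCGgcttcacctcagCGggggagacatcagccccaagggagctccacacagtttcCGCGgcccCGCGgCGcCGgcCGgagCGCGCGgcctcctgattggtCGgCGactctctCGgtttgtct
Pvalb, chr15:78206401-78206650, minus strand: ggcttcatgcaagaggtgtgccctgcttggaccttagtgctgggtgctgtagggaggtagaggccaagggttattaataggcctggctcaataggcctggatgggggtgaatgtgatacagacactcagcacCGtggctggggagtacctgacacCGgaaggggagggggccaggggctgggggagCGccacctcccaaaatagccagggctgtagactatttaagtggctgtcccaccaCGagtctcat
The Wnk1 stretch of 210 bases holds 23 CG, the Wnk4 stretch of 220 bases 13, the Cab39l stretch of 221 bases 24, and the Pvalb stretch of 250 bases 4.

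CG was counted in the 250 bases before every listed start, where it reads the same on both strands. Over 32851 such windows the median was 6 CG, 92.1% held at least 1, and 37.8% held at least 10. All 9 genes were matched, with 11 starts. The first listed start had 26 CG for Wnk1, 17 for Wnk4, 23 for Cul3, 43 for Stk39, 21 for Oxsr1, 27 for Cab39 and 29 for Cab39l, all above the median. The exceptions were Klhl3, with 6 at a start inside its annotated gene, and Pvalb, with 4. Cab39l has another start, whose window chr14:59478701-59478950 holds 1 CG, and Pvalb another with 23. The gene-level TPM sum all starts, so the use of a given start was not measured. These counts describe the sequence, and methylation of these windows was not analysed here.

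None of the 9 genes differed between the groups at an adjusted p below 0.05 (limma on log2(TPM + 1), Benjamini-Hochberg over all 13963 tested genes). Among all tested genes 0.165% were called, 0.1% as higher and 0.0645% as lower. At an unadjusted p below 0.05 there were 2 of the 9 genes, Wnk1 lower and Cab39l higher, where 10.3% of all tested genes were that low, 4.16% higher and 6.15% lower. In TPM, the groups did not overlap for 4 of the 9 genes (44.4%), against 26.1% of all tested genes. Of these 4, Wnk1, Wnk4 and Klhl3 were lower and Cab39l was higher in the KspCre DKO libraries; over all tested genes 15.6% lay apart and lower and 10.5% apart and higher. The median log2 fold change of the 9 genes was −0.11, beside −0.136 for all tested genes.

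**Figure D1:**
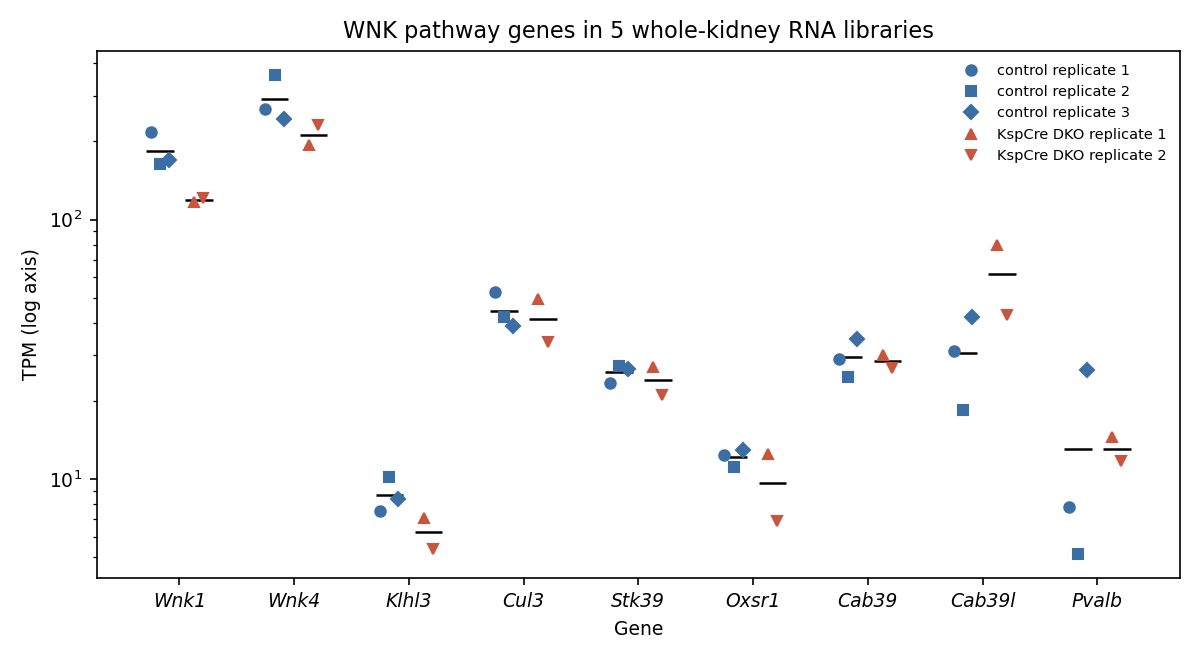
TPM (log axis) of the 9 genes in each library, with 3 controls (blue) and 2 KspCre DKO libraries (red) and a bar at each group's mean. Wnk1, Wnk4 and Klhl3 lie lower in both KspCre DKO libraries than in any control, Cab39l lies higher, and the other genes overlap.

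The WNK kinases themselves were the most abundant of the 9 genes. Wnk4 (ENSMUSG00000035112.17, chromosome 11, 101260537 to 101277409) led the order in every library, and Wnk1 (ENSMUSG00000045962.16, chromosome 6, 119923969 to 120038695) came next, with ranges that did not overlap in either group. Wnk1 read 218, 163 and 169.7 TPM in control kidneys, then 117 and 121 TPM in KspCre DKO kidneys. The KspCre DKO values lay close together and below every control, at 63.6% and 66.0% of the control mean. The log2 fold change was −0.61 ± 0.25 (SE; 95% interval −1.19 to −0.03; limma unadjusted p = 0.0408, adjusted p = 0.456). Set against the median of all tested genes the difference was −0.47.

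Wnk1 is transcribed from several starts, among them an internal one that gives a kidney-specific form without the kinase domain in the distal convoluted tubule. The deposited values are summed per gene, so the full-length and kidney-specific forms are not separated here. The Wnk1 sequence shown above precedes the annotated gene, and no window was listed at the internal start. Leaving out any single library kept the Wnk1 fold change between −0.69 and −0.48. Without KspCre DKO replicate 2, the library of fewest detected genes, it was −0.64, beside a median of 0.13 for all tested genes. Nearness to Wnk1 was taken as Euclidean distance of centred log2(TPM + 1) values over the 5 libraries. The nearest tested genes were Ctsc, a lysosomal protease gene (0.172), Zfp57, a zinc finger gene of imprint maintenance (0.176), and Tmem254b (0.181). These genes too were below every control in both KspCre DKO libraries. Their choice by nearness to Wnk1 in these same values favours that, so the share of all tested genes (15.6%) is no background for them. A link to Wnk1 was not tested.

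Wnk4 read 268, 362 and 244 TPM in control kidneys, then 194 and 231 TPM in KspCre DKO kidneys. The gap between the groups, from 231 to 244 TPM, was smaller than the range of the controls. The log2 fold change was −0.44 ± 0.27 (SE; 95% interval −1.05 to 0.17; limma adjusted p = 0.608). It moved to −0.27 without control replicate 2, the highest library. The ratio of Wnk4 to Wnk1 within a library was 1.23, 2.22 and 1.44 in the controls and 1.66 and 1.90 in the KspCre DKO libraries, which lie inside the control range. The log2 difference of 0.17 had an exact two-sided permutation p = 0.7 (adjusted p = 0.875 over 5 ratios), in a design of 10 splits that allows no p below 0.1.

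The degradation arm paired a low adaptor with a more abundant cullin. Klhl3 (ENSMUSG00000014164.15, chromosome 13, 58000226 to 58123477), which picks the substrate, was the least abundant of the 9 genes by mean. It read 7.54, 10.2 and 8.36 TPM in control kidneys, then 7.11 and 5.36 TPM in KspCre DKO kidneys. KspCre DKO replicate 1 was just under the lowest control, and the log2 fold change was −0.42 ± 0.31 (SE; limma adjusted p = 0.676), with −0.60 when replicate 1 was left out and −0.25 when replicate 2 was. RefSeq places 3 other genes over the Klhl3 locus, Mir874, Gm33389 and Gm52040, as it places Mir706 over Wnk1 and LOC108168764 over Stk39, and the strand setting of the counting is not given in the sources used here.

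Cul3 (ENSMUSG00000004364.14, chromosome 1, 80264923 to 80340690), the scaffold of the ligase, read 52.4, 42.2 and 39.0 TPM against 49.4 and 33.6 TPM. KspCre DKO replicate 1 lay within the control range and replicate 2 under it, and the log2 fold change was −0.11 (95% interval −0.79 to 0.56), above 0 with quantile normalization and without control replicate 1 or KspCre DKO replicate 2. The Klhl3 to Cul3 ratio was 0.144, 0.241 and 0.214 in the controls and 0.144 and 0.1595 in the KspCre DKO libraries. Control replicate 1 held the low end together with KspCre DKO replicate 1 (exact permutation p = 0.3, adjusted p = 0.667).

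The effector kinases did not separate the groups. Stk39 (ENSMUSG00000027030.15, chromosome 2, 68210445 to 68472108) read 23.4, 27.3 and 26.7 TPM in control kidneys, then 27.1 and 21.0 TPM in KspCre DKO kidneys. Its log2 fold change was −0.10 (95% interval −0.74 to 0.53), above 0 with median-of-ratios scaling and with TPM rescaled without mitochondrial genes. Oxsr1 (ENSMUSG00000036737.12, chromosome 9, 119238432 to 119322684) read 12.3, 11.2 and 13.0 TPM against 12.5 and 6.87 TPM. KspCre DKO replicate 1 sat among the controls, and replicate 2 was at 56.5% of their mean. The Oxsr1 log2 fold change of −0.35 (95% interval −1.11 to 0.41) became −0.74 when KspCre DKO replicate 1 was left out and 0.04 when replicate 2 was.

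Stk39 exceeded Oxsr1 in all 5 libraries. The Stk39 to Oxsr1 ratio was 1.90, 2.44 and 2.05 in the controls and 2.17 and 3.06 in the KspCre DKO libraries. The highest ratio was that of KspCre DKO replicate 2, and the groups overlapped (log2 difference 0.28, exact permutation p = 0.4, adjusted p = 0.667).

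Of the scaffold paralogs, Cab39l lay apart between the groups and Cab39 did not. Cab39 (ENSMUSG00000036707.16, chromosome 1, 85793441 to 85851577), the gene of MO25 alpha, read 29.1, 24.7 and 34.7 TPM in control kidneys, then 30.2 and 26.7 TPM in KspCre DKO kidneys. Both KspCre DKO values lay inside the control range, and the log2 fold change of −0.04 (95% interval −0.69 to 0.60) changed sign with the scaling. Cab39l (ENSMUSG00000021981.10, chromosome 14, 59440934 to 59548904), the gene of MO25 beta, read 31.1, 18.4 and 42.3 TPM in control kidneys, then 80.0 and 42.9 TPM in KspCre DKO kidneys. KspCre DKO replicate 2 was barely above control replicate 3, while replicate 1 was at 262% of the control mean. The controls themselves differed 2.3-fold.

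The Cab39l log2 fold change was 0.99 ± 0.41 (SE; 95% interval 0.05 to 1.94; limma unadjusted p = 0.042, adjusted p = 0.461). Leaving out KspCre DKO replicate 1 gave 0.55 and leaving out replicate 2 gave 1.43, so its size rests on which of the libraries is used. The ratio of Cab39l to Cab39 does not depend on how a library was scaled. It was 1.07, 0.743 and 1.22 in the controls and 2.65 and 1.61 in the KspCre DKO libraries, so that both KspCre DKO libraries lay above every control. The log2 difference was 1.06, with an exact permutation p = 0.1, the smallest the design allows (adjusted p = 0.5). In order of mean level, Cab39l passed from the fourth place in the controls to the third place in the KspCre DKO libraries, above Cul3. In the controls its range overlapped those of Cab39 and Cul3, and Cul3 exceeded it in 2 of 3 libraries. In the KspCre DKO libraries the ranges of Cab39l and Cul3 overlapped too. The paralogs are similar in sequence, and sharing of reads between them was not tested.

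**Figure D2:**
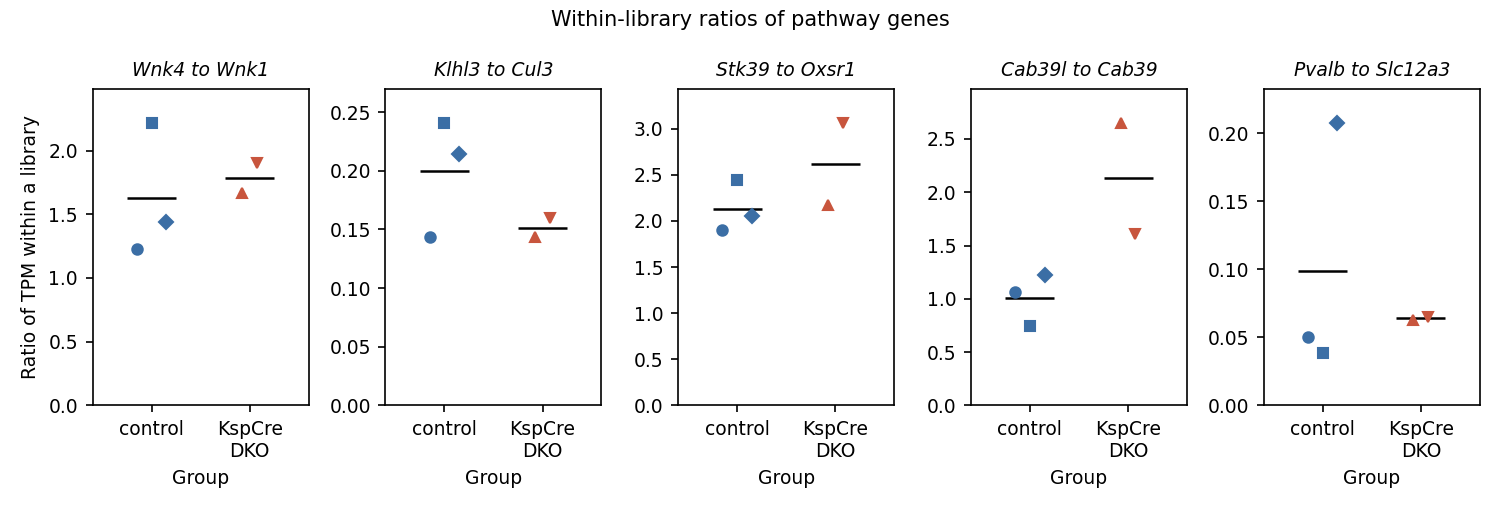
Ratio of TPM within each library for 5 gene pairs, controls in blue (circle, square and diamond for replicates 1, 2 and 3) and KspCre DKO in red (upward and downward triangle for replicates 1 and 2), with a bar at each group's mean. The Cab39l to Cab39 ratio is the only pair of these 5 whose groups do not overlap, at 0.743 to 1.22 against 1.61 to 2.65. Its exact permutation p was 0.1 (adjusted p = 0.5). For the TPM of single genes, 26.1% of all tested genes had groups that did not overlap, and no such share was computed for ratios. The ratio reuses the Cab39l values, which lay apart on their own.

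Pvalb (ENSMUSG00000005716.16, chromosome 15, 78191112 to 78206400), which encodes the calcium buffer parvalbumin, varied most among the controls. It read 7.81, 5.15 and 26.3 TPM in control kidneys, then 14.5 and 11.8 TPM in KspCre DKO kidneys. Control replicate 3 was 5.11 times control replicate 2, and the KspCre DKO values lay between them. The group means were 13.1 ± 11.5 TPM (SD, n = 3) and 13.1 ± 1.93 TPM (SD, n = 2), and the log2 fold change was 0.30 (95% interval −1.02 to 1.62). Without control replicate 3 it was 0.93, and without control replicate 2 it was −0.14. Fast skeletal muscle also makes parvalbumin. Of 6 muscle markers, 5 stayed below 1 TPM in every library, with Myh4 listed at 0 in all. The sixth, the myosin light chain gene Mylpf, read 2.18, 8.20 and 9.26 TPM in control kidneys, then 2.86 and 3.81 TPM in KspCre DKO kidneys, and was highest in control replicate 3, as Pvalb was. The summed muscle level was 3.51 to 9.48 TPM in the controls and 3.21 to 3.81 TPM in the KspCre DKO libraries, and its part in the Pvalb values was not tested.

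The Pvalb to Slc12a3 ratio was 0.0505, 0.0388 and 0.208 in the controls and 0.0628 and 0.0650 in the KspCre DKO libraries. The KspCre DKO ratios lay within the control range (exact permutation p = 1.0). Without control replicate 3 the log2 difference of −0.21 turned to 0.53. Other markers of the distal convoluted tubule did not rest at 0. The summed level of the 6 measured of 8 listed was 247 to 261 TPM in the controls and 236 to 318 TPM in the KspCre DKO libraries, with Slc12a3 its largest part. Without Slc12a3 the other 5 summed to 107, 118 and 120.3 TPM in control kidneys, then 87.4 and 55.3 TPM in KspCre DKO kidneys, which do not overlap. That sum ran opposite to Slc12a3, whose own values follow. Slc16a7, Tmem52b and Abca13 were each below every control in both KspCre DKO libraries (log2 fold changes −1.08, −0.81 and −1.07, limma adjusted p = 0.247, 0.439 and 0.478), while Emx1 (−0.42) and Sgms2 (0.31) overlapped. Over all tested genes 15.6% lay apart and lower. These 5 genes and the sum without Slc12a3 were picked out after their values were seen.

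Slc12a3 (chromosome 8, 94329109 to 94366222), the transporter that this pathway switches on, was higher where Wnk1 and Wnk4 were lower. It read 155, 133 and 127 TPM in control kidneys, then 231 and 181 TPM in KspCre DKO kidneys, which do not overlap. The log2 fold change was 0.57 ± 0.25 (SE; 95% interval −0.01 to 1.14; limma adjusted p = 0.498). The ratio of Slc12a3 to Wnk1 was 0.709, 0.814 and 0.747 in the controls and 1.98 and 1.49 in the KspCre DKO libraries. That of Slc12a3 to Wnk4 was 0.578, 0.367 and 0.519 against 1.19 and 0.783. Both ratios were chosen after their values were seen, and are given without a test.

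Slc12a1 (chromosome 2, 125152510 to 125230002), the other transporter target, went the opposite way, at 394, 562 and 519 TPM against 191 and 61.3 TPM. Its log2 fold change was −2.15 (limma adjusted p = 0.141), and of the 16 alternatives it passed in 1, without KspCre DKO replicate 1 (−2.97, adjusted p = 0.0292). All 6 thick ascending limb markers had negative fold changes, as 61.7% of all tested genes had, and Cldn16 overlapped between the groups. Their sum was 1694 to 1799 TPM in the controls and 572 to 846 TPM in the KspCre DKO libraries. The sum of 6 principal cell markers was 723 to 784 against 2240 to 2261 TPM, with 5 of 6 higher. Aqp2 was its largest part in the KspCre DKO libraries, at 1414 and 1218 TPM. Scnn1g went the other way and was below every control in both. The sum of 5 intercalated cell markers was 169 to 225 against 116 to 149 TPM, though Slc4a1 and Foxi1 overlapped. That of 4 connecting tubule markers was 6589 to 9209 against 5050 to 6011 TPM. Klk1 and S100g were the largest parts of the connecting tubule sum. S100g and Trpv5 were below every control, while Klk1 and Calb1 overlapped. Proximal tubule markers overlapped, at 1330 to 2209 against 1298 to 3611 TPM, as did 4 endothelial ones, at 103 to 207 against 131 to 200.2 TPM. The sum of 4 fibroblast markers was 62.3 to 144 against 48.1 to 80.8 TPM, and that of 3 macrophage markers 27.4 to 53.7 against 16.0 to 26.8 TPM. Of the macrophage markers Lyz2 was below every control, while C1qa and Cd68 overlapped. The part of these shifts in the values of the 9 genes was not tested.

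Around the 9 genes, a list of 32 related genes was read from the same fit; 28 had values and 27 were tested. None was called by limma, and 5 of 27 had an unadjusted p below 0.05, with 1 higher and 4 lower, where 10.3% of all tested genes were that low. The groups did not overlap for 9 of 27 (33.3%), against 26.1% of all tested genes. The median log2 fold change was −0.15, near the −0.136 of all tested genes.

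Among hormone inputs, Sgk1, the aldosterone-induced kinase, read 119, 81.1 and 74.8 TPM in control kidneys, then 352 and 151 TPM in KspCre DKO kidneys. Both lay above every control (log2 fold change 1.35 ± 0.39 SE, limma adjusted p = 0.282). Nr3c2, the mineralocorticoid receptor, had a log2 fold change of 0.27 with overlapping groups. Of the WNK paralogs, Wnk2 was at 1.05 to 1.88 TPM in every library and Wnk3 at or below 0.24 TPM, too low to be tested. In the ubiquitin machinery, Cand1, the cullin exchange factor, was higher without overlap (log2 fold change 0.61) and Ube2m, the NEDD8-conjugating enzyme, lower without overlap (−0.50), with adjusted p = 0.588 and 0.594.

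The potassium channel gene Kcnj1 read 75.4, 89.9 and 105 TPM in control kidneys, then 50.3 and 36.2 TPM in KspCre DKO kidneys (log2 fold change −1.05, limma adjusted p = 0.252). Kcnj10, whose basolateral channel sets the chloride that WNK kinases sense, read 12.5, 17.2 and 14.2 TPM against 7.54 and 9.05 TPM (−0.74, adjusted p = 0.439), while its partner Kcnj16 overlapped. Ppp1r1a, the inhibitor of protein phosphatase 1, read 302, 508 and 541 TPM against 207 and 157 TPM (−1.27, adjusted p = 0.208). The phosphatase subunit Ppp1cc overlapped (−0.15). Kcnj1, Kcnj10 and Ppp1r1a were thus below every control in both KspCre DKO libraries, as 15.6% of all tested genes were. Whether they follow the marker sums given above was not tested.

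**Figure D3:**
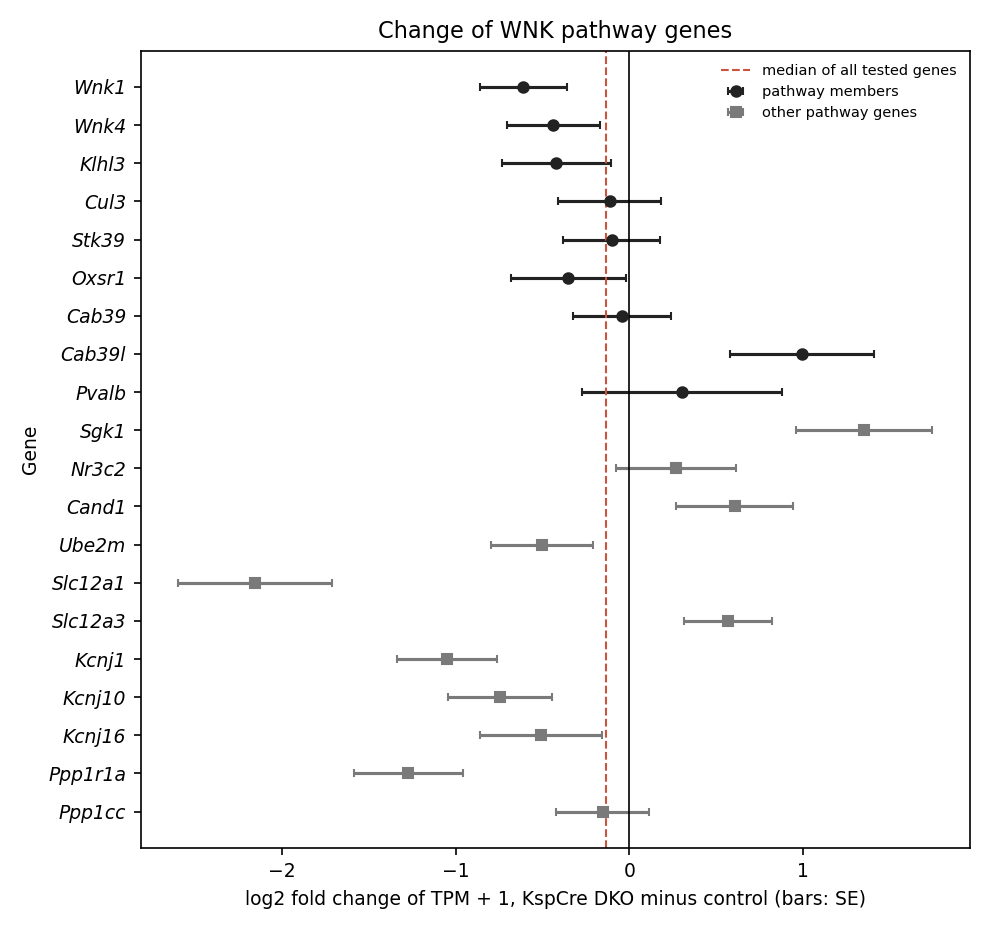
Log2 fold change of TPM + 1, KspCre DKO minus control, with SE bars, for the 9 genes (black circles) and the related genes of smallest p in each role (grey squares); the dashed line is the median of all tested genes. Wnk1 sits at −0.61 and Cab39l at 0.99, while Slc12a1 (−2.15) and Sgk1 (1.35) lie farther out.

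The sign of the fold change of 4 of the 9 genes did not hinge on any single library. Wnk1, Wnk4 and Klhl3 had negative and Cab39l positive fold changes in all 16 alternative fits, as Slc12a3 had positive ones. Wnk1 moved least with the KspCre DKO library used, at −0.58 without replicate 1 and −0.64 without replicate 2. The median of all tested genes itself moved, from −0.39 without replicate 1 to 0.13 without replicate 2. Set against that median, Wnk1 was therefore not steady, and Wnk4 without replicate 1 (−0.31) lay above it. Fits with 1 KspCre DKO library assume that it varies as the controls do. Cul3, Stk39, Oxsr1, Cab39 and Pvalb each changed sign in at least 1 alternative.

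**Figure D4:**
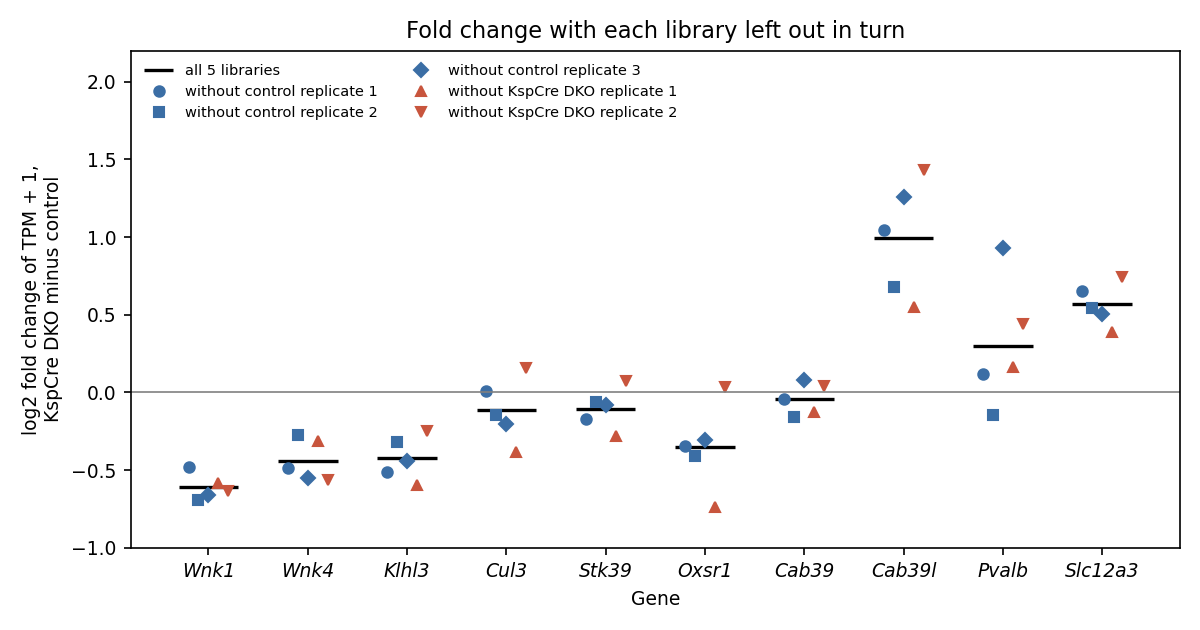
Log2 fold change of the 9 genes and Slc12a3 with all 5 libraries (black bars) and with each library left out in turn (blue, a control left out; red, a KspCre DKO library left out). Wnk1 stays between −0.69 and −0.48, Cab39l spreads from 0.55 to 1.43, and Pvalb from −0.14 to 0.93.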

How the data were processed

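Whole-kidney RNA was purified on RNeasy columns, and Illumina TruSeq libraries were made from its poly(A) fraction, per the labels' protocols. RSEM 1.3.1, STAR 2.2.1, Bismark 0.19.1, Trim Galore 0.5.0 and the build mm10 are listed in the submitters' processing notes, which assign no tool to a file. The deposited values are TPM per Ensembl gene, scaled by the authors to a fixed sum per library. TPM keep no depth, so no counting interval can be given, and reads of similar genes are divided by estimate.

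Of 54146 identifiers 96.9% were paired with a symbol. Groups came from titles. Genes averaging 1 TPM or more over the 5 libraries, 13963 in all, were tested two-sided on log2(TPM + 1) with limma 3.58.1 (R 4.3.3, moderated with an intensity trend), Benjamini-Hochberg adjusted over all of them and called below 0.05. The fit was also run on simulated data, whose settings and outcome are not given here. That run is therefore no check on changes of the size reported above. The pseudocount makes the printed fold changes understate those of low genes. Ratios within libraries were compared by exact permutation. Positions and sequences are RefSeq, assembly GRCm38.p6, the build family of mm10, matched by symbol.

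The genes and lists were chosen with earlier results of these data known. Named are the 9 genes, Slc12a3, Slc12a1, up to 2 related genes of smallest p per role, and the 3 genes nearest to the member of smallest p; Wnk2 and Wnk3 were added after their values were seen. Alternatives were 2 pseudocounts, 2 filters, 3 scalings, 3 settings of the test, a replicate block, and each library left out. Related or marker genes without values are not analysed here.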

Additional observations from a re-analysis of the deposited data

How the results depend on the processing

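None of the 9 genes was called in any of the 16 alternative fits, and Wnk1, Wnk4, Klhl3, Cab39l and Slc12a3 kept their direction in all of them, with Wnk1 between −0.69 and −0.40, Wnk4 between −0.56 and −0.21, Klhl3 between −0.60 and −0.25 and Cab39l between 0.55 and 1.43. Quantile normalization moved the median of all genes from −0.136 to −0.019, with Wnk1 at −0.40 there. Against main log2 values of −0.11 for Cul3, −0.10 for Stk39, −0.04 for Cab39 and 0.30 for Pvalb, the sign turned for Cul3 with quantile normalization (0.0096), for Stk39 with median-of-ratios scaling (0.0052) and TPM rescaled without mitochondrial genes (0.0052), for Cab39 with these scalings (0.0685 and 0.0685), quantile normalization (0.0391) and the replicate block (0.0777), and for Pvalb with array weights (−0.0705). Leaving out 1 library gave ranges of −0.385 to 0.159 for Cul3, −0.279 to 0.0723 for Stk39, −0.740 to 0.0352 for Oxsr1, −0.158 to 0.0777 for Cab39 and −0.143 to 0.933 for Pvalb. For the ratios it gave log2 differences of −0.0058 to 0.421 for Wnk4 to Wnk1 and −0.681 to 0.529 for Pvalb to Slc12a3; the other 3 ratios kept their sign.

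Over all tested genes, 14 higher and 9 lower calls became 7 higher with a pseudocount of 0.1, 28 higher with a pseudocount of 5, 3 and 1 without a filter, 24 higher with median-of-ratios scaling, 35 higher with quantile normalization, 26 higher without mitochondrial genes, 6 and 3 without the trend, and 3 and 2 with array weights. With each library left out, higher calls ran from 3 to 90 and lower from 3 to 470, the largest without KspCre DKO replicate 1, and 0 to 1 related genes were called lower, the 1 being Slc12a1 without KspCre DKO replicate 1. With the replicate block the calls were 47 higher and 28 lower and no member was called; the labels do not say that numbers pair libraries, same-numbered deviations correlated at 0.0926 and 0.0281, and the block leaves control replicate 3 out of the fold change. The cause of these shifts was not tested. Depth is unknown, so it cannot be said which low values it limits.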
